A study of Mus musculus with 22 samples.

Results

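The genes described here, most of which encode nuclear subunits of the 5 complexes of oxidative phosphorylation, were measured in 22 single retinal cells of the mouse. They were chosen by symbol alone: every gene whose symbol in the platform annotation began with Nduf (without the Ndufaf assembly factors), Uqcr, Cox4 to Cox8 or Atp5, together with Sdha, Sdhb, Sdhc and Sdhd. The rule found 82 of the 18193 genes with a probe set of their own on the array, of which 34 belong to complex I, 4 to complex II, 8 to complex III, 19 to complex IV and 17 to complex V. Ndufa4, now counted as a subunit of cytochrome c oxidase, and its relative Ndufa4l2 were placed in complex IV. So was Cox7a2l, which joins complexes III and IV in supercomplexes. Cox7a2l and Ndufa4l2 are called subunit genes here only because the rule takes them. Where a gene had several probe sets, as 49 of the 82 did, the one brightest on average across the cells stood for it. All 82 symbols matched a gene of the RefSeq table.

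Complex I (NADH dehydrogenase) and complex II (succinate dehydrogenase) pass electrons from NADH and succinate to ubiquinone, complex III (cytochrome bc1) passes them to cytochrome c, and complex IV (cytochrome c oxidase) passes them to oxygen. Complexes I, III and IV pump protons, and complex V, the ATP synthase, uses the resulting gradient to make ATP. Complex II is the only one of the 5 that does not contain subunits encoded in mitochondrial DNA, and it also serves the citrate cycle. Photoreceptors are known for a very high demand for ATP, and the inner segment of an adult rod is packed with mitochondria.

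The cells comprised 13 ganglion cells, the neurons that send the output of the retina to the brain, 6 amacrine cells, which are inhibitory interneurons, and 3 photoreceptors. Where E gives the embryonic day and P0 is the day of birth, the ganglion cells were taken at E12.5 (3 cells), E13.5 (1 cell), E14.5 (2 cells), E15.5 (3 cells) and P0 (4 cells). Of the amacrine cells, 1 was from E16.5 and 5 were from P0, and of the photoreceptors, 2 were from P0 and 1 was an adult rod. The labels name no treatment or allele. They give the CD1 strain for 9 cells and no strain for the other 13, and they tie no cell to an animal, so cells of a type and stage may share one. The RNA of each picked cell was copied and amplified by PCR before hybridisation to an Affymetrix mouse genome array, and the cell types were named by the submitters only after profiling. Signals below 200 were raised to that floor, log2 7.64, and a gene is called detected in a cell at a signal of 1000 or more, log2 9.97. A 1-unit difference on the log2 scale is a doubling of the signal. Signals of different probe sets are not used here to rank single genes by abundance, because probes differ in brightness. Counts, medians and shares of signal over several genes do depend on that brightness.

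The nuclear genes of the respiratory chain lack a common transcription unit, and the factors NRF1 and GABP are known to bind many of their promoters. The 250 bases before the RefSeq start site (build GRCm38.p6) were available for 67 of the 82 genes and were searched on both strands for the NRF1 core (GCGCA, any base, GCGC) and the GABP core (CCGGAAG). Matches of the 2 cores do not overlap in the windows printed. The NRF1 core was present before 11 of the 67 genes (16.4%), against 5.84% of 17492 protein-coding genes, and the GABP core before 12 (17.9%), against 10.2%. Both cores were present before 3 genes (4.48%, against 1.02%). By complex, the NRF1 core was found before 4 of 31 genes of complex I, 2 of 3 of complex II, 0 of 5 of complex III, 1 of 13 of complex IV and 4 of 15 of complex V. A match describes these letters only and is no evidence of binding. The windows of 6 genes that return in the results are printed 5′ to 3′ with the matches in capitals. All of them but Atp5b hold an NRF1 core, so they do not stand for the 67 genes. On the probe sets used, Atp5c1 and Atp5b were detected in every cell. Cox6a1 was below the detection level in 7 of the 11 P0 cells. Ndufa8 was higher in P0 than in E12.5 ganglion cells, and Sdha and Atp5k were brightest in the adult rod. In Sdha the NRF1 core stood 3 times. In Cox6a1 it stood at 2 places, and a GABP core, read on the other strand, lay near the start site. The window of Atp5b held neither core, and a 2nd annotated start of Atp5c1 also had none before it.
Atp5c1, chr2:10080433-10080682, minus strand: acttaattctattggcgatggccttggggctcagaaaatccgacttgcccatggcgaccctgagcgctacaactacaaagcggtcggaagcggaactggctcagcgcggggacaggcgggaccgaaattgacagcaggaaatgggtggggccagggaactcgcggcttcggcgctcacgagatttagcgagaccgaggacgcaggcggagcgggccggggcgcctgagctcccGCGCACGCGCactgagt
Atp5b, chr10:128083057-128083306, plus strand: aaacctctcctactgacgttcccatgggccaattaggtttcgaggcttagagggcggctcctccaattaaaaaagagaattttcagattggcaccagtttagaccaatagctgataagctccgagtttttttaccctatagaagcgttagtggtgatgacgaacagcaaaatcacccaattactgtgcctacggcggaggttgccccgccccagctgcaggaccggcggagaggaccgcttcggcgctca
Cox6a1, chr5:115348959-115349208, minus strand: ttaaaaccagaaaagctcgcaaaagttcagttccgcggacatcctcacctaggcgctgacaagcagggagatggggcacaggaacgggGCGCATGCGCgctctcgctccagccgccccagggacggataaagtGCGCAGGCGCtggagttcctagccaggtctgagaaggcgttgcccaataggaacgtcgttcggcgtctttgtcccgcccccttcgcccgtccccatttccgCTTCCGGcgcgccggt
Ndufa8, chr2:36049339-36049588, minus strand: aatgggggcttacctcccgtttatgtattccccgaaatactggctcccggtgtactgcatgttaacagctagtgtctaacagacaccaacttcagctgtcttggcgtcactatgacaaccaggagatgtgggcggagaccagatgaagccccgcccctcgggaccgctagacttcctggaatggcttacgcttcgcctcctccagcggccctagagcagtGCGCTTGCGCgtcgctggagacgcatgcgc
Sdha, chr13:74350241-74350490, minus strand: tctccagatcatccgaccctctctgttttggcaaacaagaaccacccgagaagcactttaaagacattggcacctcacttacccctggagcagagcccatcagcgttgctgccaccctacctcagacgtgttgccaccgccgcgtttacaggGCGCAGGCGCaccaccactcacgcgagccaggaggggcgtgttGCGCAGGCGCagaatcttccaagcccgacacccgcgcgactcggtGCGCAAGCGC
Atp5k, chr5:108434400-108434649, minus strand: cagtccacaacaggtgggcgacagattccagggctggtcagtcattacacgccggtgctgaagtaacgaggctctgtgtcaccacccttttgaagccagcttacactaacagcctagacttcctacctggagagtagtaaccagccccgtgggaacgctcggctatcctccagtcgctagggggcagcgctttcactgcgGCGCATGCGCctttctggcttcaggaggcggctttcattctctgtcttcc

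The labelled cell types were compared with a set list of markers. The types were named only after profiling, and the list was chosen with earlier results of these data known. The comparison is therefore no independent check of the labels. Ganglion cells held 7 to 12 of 12 ganglion markers, the photoreceptors 7 to 9 of 9 photoreceptor markers, and amacrine cells 2 to 5 of 8 amacrine markers. Of the 8, Tfap2b and Gad1 were detected in 6 of 6 amacrine cells, Tfap2a in 5, Gad2 and Barhl2 in 2 and Ptf1a in 1, while the transporter genes Slc32a1 and Slc6a9 were detected in none; Gad1 was also detected in 2 of 3 photoreceptors and Barhl2 in 4 of 13 ganglion cells. Amacrine cells held 0 to 4 of the ganglion markers, with 4 in J6 of E16.5 and 3 in P0 cell B1, which had 2 amacrine markers. Between 1517 genes (an E15.5 ganglion cell, C7) and 4351 genes (a P0 ganglion cell, F1) were detected per cell. Lens and blood genes were detected only in ganglion cells of E13.5, E14.5 and E15.5, in all 6 of them (1 to 4 of 7 genes). Progenitor markers were most numerous in E14.5 ganglion cell E1 (7 of 9), which was also the cell with the most subunit genes (67). Markers of glia were detected at 0 to 4 of 8 per cell, the 4 in P0 photoreceptor H1, and their summed signal was highest in the adult rod with 1 of 8 detected; Apoe, Aqp4 and Gfap were detected in none. The part of these other cell types in the results below was not tested.

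Most subunit genes were detected in some cells and not in others, even within a type and stage. Of the 82 genes, 72 (87.8%) reached the detection level in at least 3 cells and were tested, against 39.5% of all genes. The ATP synthase was the complex seen most regularly: its 17 genes were detected in a median of 18 of the 22 cells, and 8 of them in 20 or more. The median was 12 cells for complex I, 16 for complex II, 14 for complex III and 11 for complex IV, and no gene of complexes I, II or III reached 20 cells. On the probe sets used, only Atp5b and Atp5c1, which encode the beta and gamma subunits of the catalytic head, were detected in all 22 cells. The alpha subunit gene Atp5a1 and the stalk genes Atp5j and Atp5pb were detected in 21 cells, as was Cox7a2 of complex IV. Other probe sets of Atp5a1 and Atp5pb were detected in all 22 cells. The other probe set of Atp5c1 was detected in none, and the one used is of the kind that can bind several transcripts. Detection depends on the probes as well as on the transcript, so these counts do not rank the subunits by abundance.

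**Figure D1:**
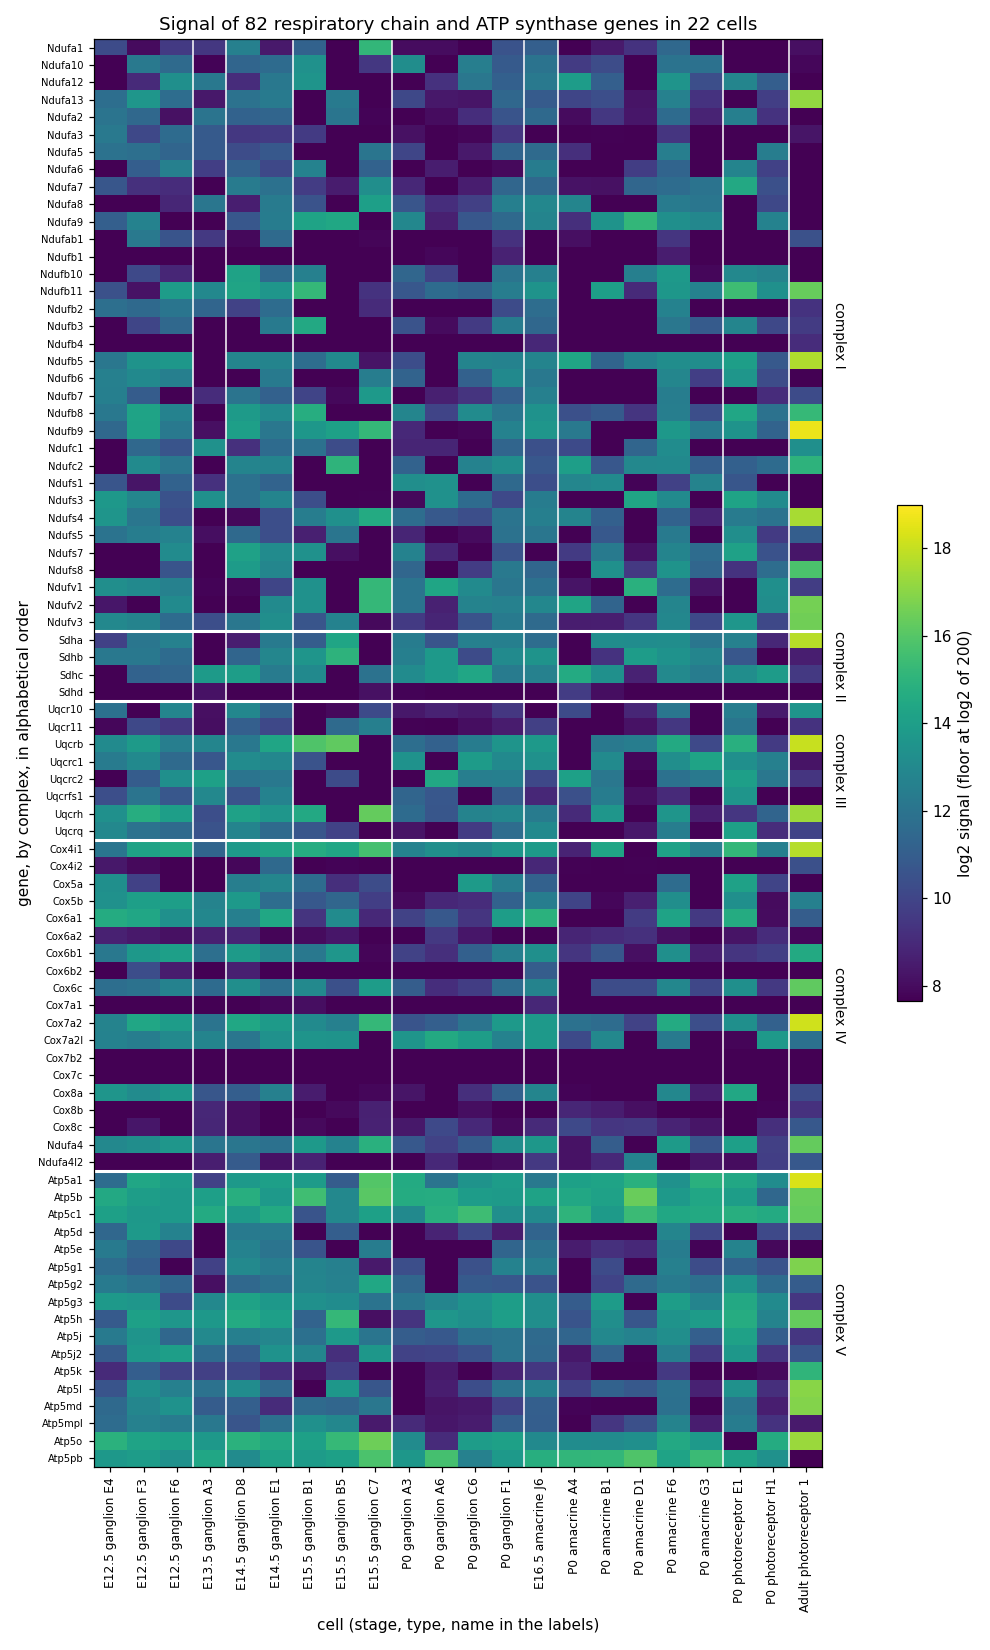
Log2 signal of the 82 genes (rows, by complex and in alphabetical order) in the 22 cells (columns, by type and stage). Dark purple is the floor at log2 7.64. Most rows of complex V are bright in nearly every column, while the rows of complexes I and IV alternate between bright cells and the floor, and the adult rod holds both the brightest values and genes at the floor.

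On the probe sets used, the head genes of the ATP synthase had signal in every type and stage. Atp5b measured 13.80, 13.97 and 14.51 in the E12.5 ganglion cells, 13.83, 13.93, 14.63 and 14.69 in those of P0, and 13.73 to 16.42 in the P0 amacrine cells. The lowest of its 22 values was 11.45 in a P0 photoreceptor, and the adult rod measured 16.40. Atp5c1 ranged from 10.61 in an E15.5 ganglion cell to 16.33 in the rod, with 13.68, 13.77 and 14.08 at E12.5 and 13.04 to 15.46 in the P0 ganglion cells. The values of both genes at E12.5 lay within those at P0, except for the lowest Atp5b value, 13.80.

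Of the 82 genes, 10 did not reach the detection level in 3 cells, and 8 of these were detected in no cell: Ndufb1 and Ndufb4 of complex I, the membrane anchor Sdhd of complex II, and Cox6a2, Cox7a1, Cox7b2, Cox7c and Cox8b of complex IV. Whether these probe sets respond at all was not tested. The other two, Cox4i2 and Cox6b2, were detected in 2 cells each. A further 8 symbols of the families, such as Ndufs6 and Ndufa11, were listed only on probe sets shared with other symbols and were not measured.

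Several subunits of cytochrome c oxidase exist in a common form and in forms known from muscle, testis, lung or low oxygen. On the probe sets used, the common forms were detected in more cells than the others. Cox4i1 was detected in 20 cells, Cox7a2 in 21, Ndufa4 in 18, Cox6b1 in 14, Cox6a1 in 13 and Cox8a in 11. Cox7a2l was also detected in 18. The heart and muscle forms Cox6a2, Cox7a1 and Cox8b were detected in none. Cox7c, Sdhd, Ndufb1 and Ndufb4, which are not such forms, were likewise detected in none. Whether these probe sets respond was not tested, so the counts do not rank the forms by abundance. Cox4i2, the lung and hypoxia form, reached 11.51 in 1 E14.5 ganglion cell and 10.40 in the adult rod and was at 8.89 or less in the other 20. The testis form Cox6b2 reached 10.34 in 1 E12.5 ganglion cell and 10.99 in the E16.5 amacrine cell. Cox8c, also a testis form, was just above the detection level in 3 cells, at 10.14 in a P0 ganglion cell, 10.15 in a P0 amacrine cell and 10.75 in the rod. Ndufa4l2, a gene known to be induced by low oxygen, was detected in 3 cells and was highest at 12.66 in P0 amacrine cell D1, the cell with the fewest of the 82 genes.

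The 3 genes of the c ring, the rotor of the ATP synthase, encode the same mature protein. Atp5g3 was detected in 20 cells, Atp5g2 in 18 and Atp5g1 in 16. In the adult rod Atp5g1 measured 16.79, above every other cell (7.64 to 12.99), and Atp5g3 measured 9.42, below all cells except a P0 amacrine cell at the floor. Atp5g2 measured 10.94 in the rod, within its range of 7.64 to 14.40 in the others.

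Between 23 and 67 of the 82 genes were detected per cell, with a median of 40.5. The mean was 47.4 ± 13.55 (SD, n = 13) in ganglion cells, 42 ± 17.9 (SD, n = 6) in amacrine cells and 43.7 ± 5.69 (SD, n = 3) in photoreceptors, so the types differed by less than the spread between cells. The spread within a type and stage was wide. The P0 amacrine cells held 23, 27, 36, 38 and 64 of the genes, and the P0 ganglion cells 24, 39, 39 and 62. The cells with many subunit genes were also those with many genes in all: over the 22 cells the 2 counts had a Spearman correlation of 0.81, both being read from the same array. The share of a cell's summed signal that lay in the 82 genes was less tied to that count (Spearman correlation 0.27). It ran from 0.936% in P0 amacrine cell A4 to 3.51% in the adult rod.

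**Figure D2:**
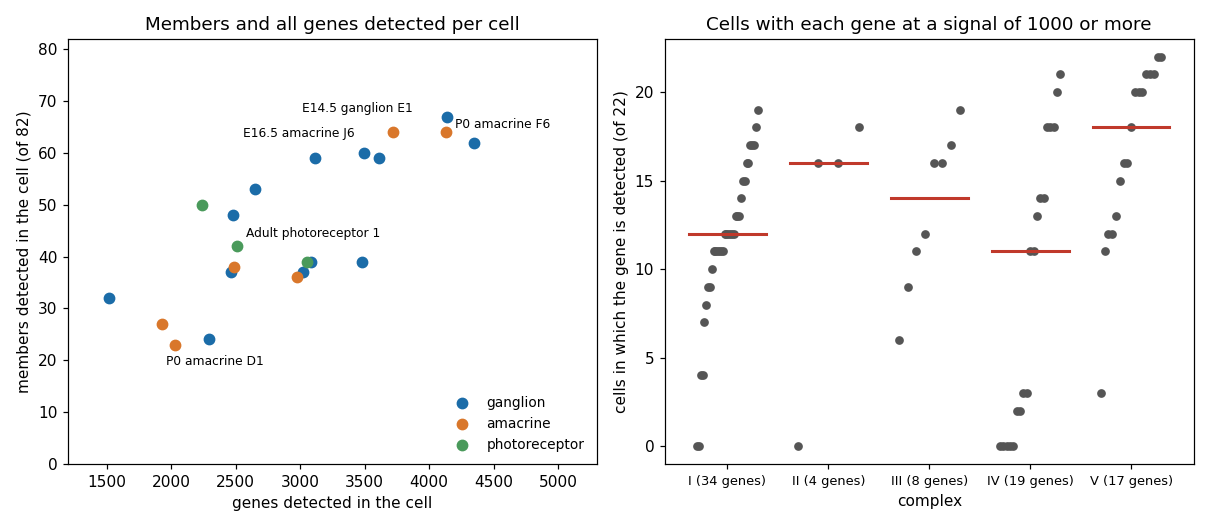
Left, number of the 82 genes detected in each cell against the number of all genes detected in it, coloured by cell type; right, number of cells in which each gene was detected, by complex, with the median as a red line. P0 amacrine cell F6, with 64 genes, lies with the richest cells and apart from the 23 to 38 of the other P0 amacrine cells, and the complex V median of 18 cells is the highest.

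The subunit genes varied together from cell to cell more than tested genes at large did. Over the 22 cells, the median Spearman correlation of 2556 pairs of tested members was 0.15 and 12.2% of pairs were above 0.5, against 0.03 and 1.86% for all pairs of tested genes. Pairs share the cells, their RNA yield and the type of cell, so these are descriptions. In every cell the tested subunit genes were also less often at the floor than all tested genes, and values at the floor are ties in a rank correlation. The part of these ties in the difference was not tested. Complex IV stood highest, with a median of 0.30 and 31.8% of 66 pairs above 0.5, and the 3 tested genes of complex II lowest, with a median of -0.42 over 3 pairs. Partners were not confined to their own complex: the median was 0.16 within and 0.14 between complexes. The closest pairs were Cox6c with Ndufa4 (0.90), Ndufa4 with Atp5md (0.87), Cox6b1 with Atp5k (0.87) and Uqcrq with Cox8a (0.86). These are mostly small accessory subunits around the catalytic cores. Of the median signals of the complexes per cell, those of I and III were most alike (0.72) and those of II and V least (0.05).

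Between the ends of the ganglion series, E12.5 and P0, Cox5b, Cox8a and Atp5md were among the subunit genes with large differences, all lower at P0. Cox5b, a nuclear subunit of cytochrome c oxidase, measured 13.39, 14.00 and 14.06 in the E12.5 cells and 7.95, 8.89, 9.07 and 11.21 in the P0 cells. The groups did not overlap, and the mean log2 difference, P0 minus E12.5, was -4.54. Between these ends it measured 12.71 at E13.5, 11.70 and 13.76 at E14.5, and 9.75, 10.76 and 11.41 at E15.5. All 6 cells up to E14.5 were above all 7 later ones. Cox8a, another small subunit of complex IV, measured 13.13, 13.55 and 13.65 at E12.5 and 7.64, 8.31, 9.19 and 11.18 at P0, a difference of -4.36. Its E15.5 cells, at 7.69, 7.83 and 8.51, were already below the detection level. Atp5md, a small membrane subunit of the ATP synthase, measured 11.50, 12.84 and 13.43 at E12.5 and 7.64, 8.24, 8.39 and 9.85 at P0 (difference -4.06), but it was still at 11.40 to 12.13 at E15.5. In all 3 genes the highest P0 value came from cell F1, the P0 ganglion cell with the most genes detected. The probe sets of Cox5b and Cox8a are of the kind that can bind several transcripts.

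Of the 72 tested subunit genes, 24 (33.3%) were lower at P0 by 2 or more on the log2 scale, against 9.27% of all 7183 tested genes, and 2 (2.78%) were higher, against 9.7%. No test was possible, since each stage counts as 1 sample. The cells of both stages did not overlap for 14 genes that were lower at P0 (19.4%, against 3.48% of all tested genes) and for 2 that were higher (2.78%, against 2.59%). The median difference was -0.97, against 0.08 over all tested genes. It ran from -1.34 to -0.68 when cells were left out one by one, and it was -0.78 under quantile normalization. Genes detected per cell were alike at both ends, 3251 ± 522 (SD, n = 3) at E12.5 and 3302 ± 856 (SD, n = 4) at P0, while subunit genes detected were 57.3 ± 3.79 and 41 ± 15.7. These counts cover genes that passed a filter on the same cells. In the E12.5 cells 6.94% to 20.8% of the tested subunit genes were at the floor, against 40.8% to 52.6% of all tested genes. A gene at the floor cannot be lower at P0, so the shares of lower genes are not like for like. Progenitor and cell-cycle markers were detected at 1 to 3 of 9 in the E12.5 cells (log2 of their summed signal 13.56 to 14.48) and at 0 to 3 of 9 in the P0 cells (10.81 to 15.37), and their part in the difference was not tested.

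By complex, the median difference was -1.76 over 12 tested genes of complex IV, -1.68 over 17 of complex V, -1.03 over 8 of complex III and -0.76 over 32 of complex I. In complex I, 10 genes were lower by 2 or more, from Ndufb2 (-3.49), Ndufb9 (-3.37), Ndufs5 (-3.28), Ndufa3 (-3.06) and Ndufa13 (-2.81) to Ndufab1 (-2.11). Ndufb2 measured 11.51, 11.80 and 12.07 at E12.5 and was at or near the floor in 3 of the 4 P0 cells, with 10.25 in F1. In complex III the lowest was Uqcrq (-2.85), which measured 11.55 to 12.97 at E12.5 and 7.64 to 11.71 at P0, so that F1 reached into the E12.5 range. In complex IV, Cox6a1 (-3.11) and Cox6b1 (-2.63) also differed by over 2, whereas Cox5a (0.14) and Cox7a2l (0.98) were not lower, nor was Atp5g3 (0.55) of complex V. The 3 large genes of the ATP synthase head had small differences of the other sign, 0.18 for Atp5b, 0.30 for Atp5c1 and 0.19 for Atp5a1.

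Complex II was the exception in sign. All 3 of its tested genes were higher at P0, with a median difference of 0.52. Sdhc, a membrane anchor of the complex, measured 7.64, 11.22 and 11.36 in the E12.5 cells and 12.38, 13.13, 13.75 and 14.34 in the P0 cells, a difference of 3.33 with no overlap. The intermediate cells did not form a series, since Sdhc was at 13.82 at E13.5 and at 7.64 in an E15.5 cell. Sdha, the flavoprotein that holds the active site, and Sdhb, the iron-sulphur subunit, overlapped between stages and differed by 0.52 and 0.41. The other gene with higher, non-overlapping P0 values was Ndufa8 of complex I, at 7.64, 7.64 and 8.84 at E12.5 and 9.14, 9.79, 10.63 and 12.54 at P0 (2.48).

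**Figure D3:**
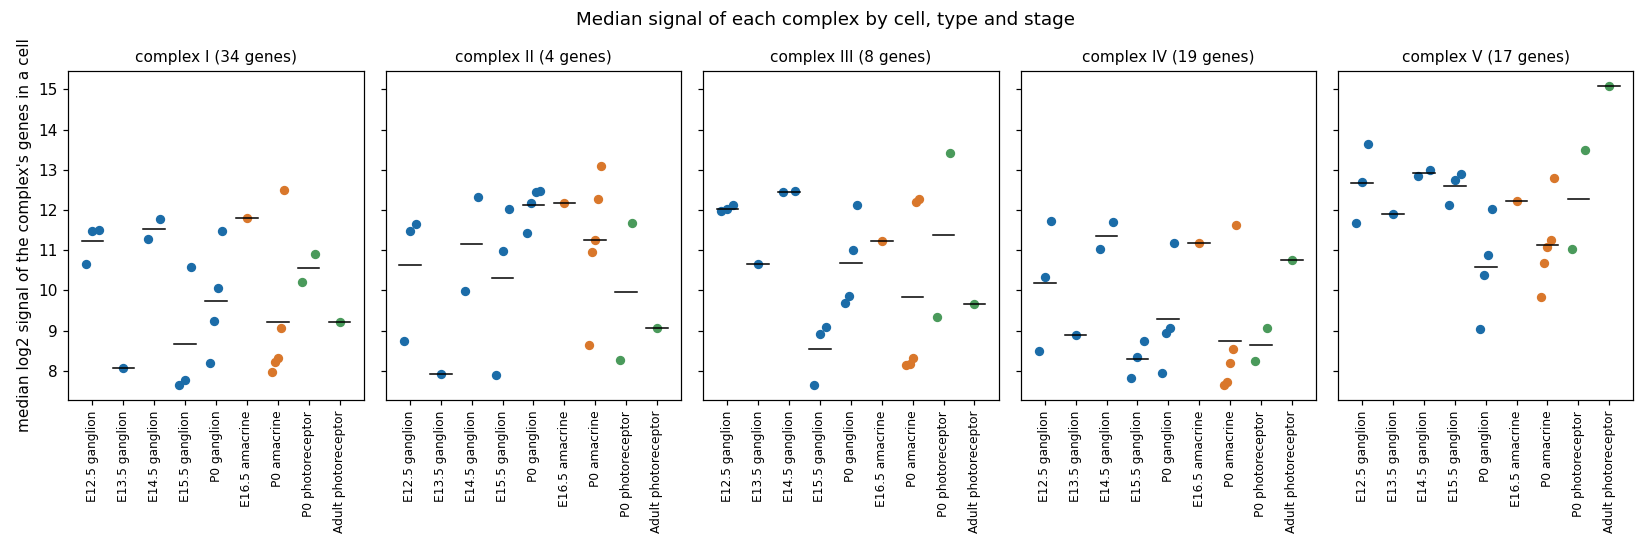
Median log2 signal of all genes of each complex in each cell, by type and stage (blue ganglion, orange amacrine, green photoreceptor); the black line is the mean of the cells. In complex V the P0 ganglion cells run from 9.03 to 12.04 and the E12.5 cells from 11.67 to 13.63, while in complex II the P0 ganglion cells run from 11.43 to 12.46.

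Over the whole ganglion series no subunit gene passed the test for a trend. The slope per step over the 5 ordered stages, fitted with limma, was significant after Benjamini-Hochberg adjustment at 0.05 for none of the 72 genes and for none of the 7183 tested genes (0%). At an unadjusted p under 0.05 there was 1 of 72 (1.39%), against 2% of all tested genes. That gene was Cox8a, with a slope of -1.14 ± 0.57 log2 units per step (SE, 5 stages; limma unadjusted p = 0.0457, adjusted p = 1). Cox5b (-1.11 ± 0.57), Ndufb2 (-1.02 ± 0.54) and Ndufa3 (-0.87 ± 0.45) followed. The median slope was -0.15 over the subunit genes and 0 over all tested genes, and it was -0.30 for complex III and 0.44 for complex II. The intermediate stages did not lie on a line between the ends: the median signal of the 82 genes was 9.65 in the E13.5 cell, 11.90 and 12.17 in the E14.5 cells, and 8.33, 8.84 and 10.73 in the E15.5 cells. E13.5 is 1 cell, and the 3 E15.5 cells had only 1517, 2465 and 2475 genes detected in all.

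**Figure D4:**
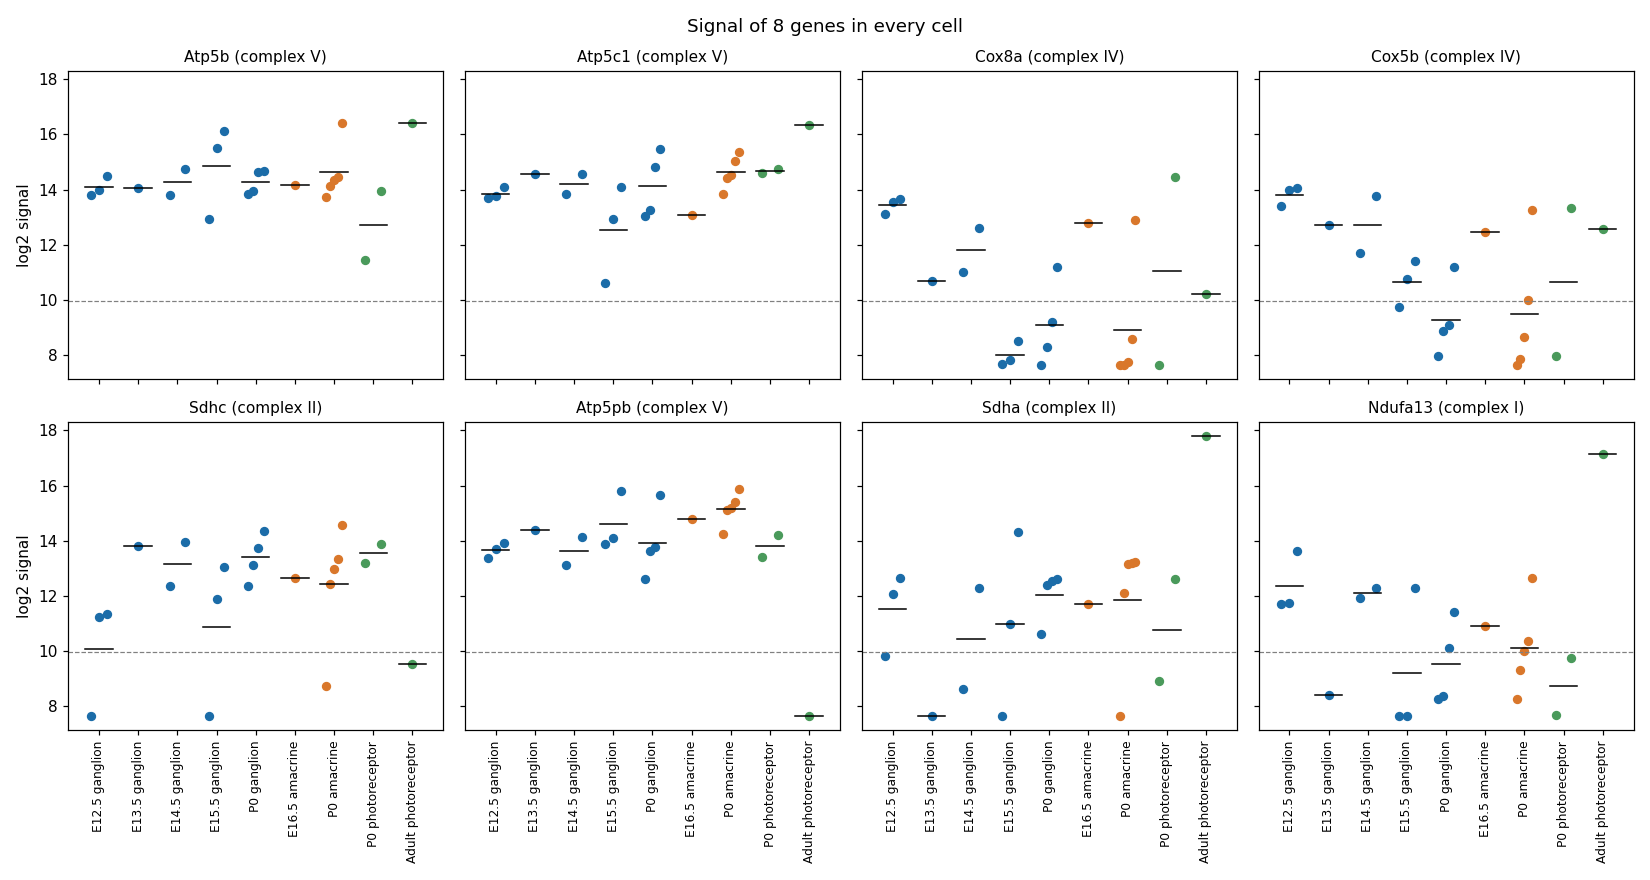
Log2 signal of 8 subunit genes in every cell, by type and stage (blue ganglion, orange amacrine, green photoreceptor); the black line is the mean of the cells and the dashed line the detection level, log2 9.97. Cox5b and Cox8a are above log2 13 in all E12.5 ganglion cells and below the dashed line in 3 of the 4 P0 ganglion cells, Atp5b and Atp5c1 stay above it in every cell, and Atp5pb is at the floor only in the adult rod. Another probe set of Atp5pb, not drawn, was detected in all 22 cells, and another one of Atp5c1, not drawn, in none.

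No subunit gene passed the test between ganglion and amacrine cells. With the 5 ganglion stages set against the 2 amacrine stages, limma called none of the 72 genes, against 5 of all 7183 tested genes (0.0696%), and none had an unadjusted p under 0.05, against 3.94%. The median difference, ganglion minus amacrine, was -0.14 over the subunit genes and -0.06 over all tested genes, and the sign of the first turned when the E16.5 amacrine cell J6 was left out (0.78) or the P0 amacrine cell F6 (0.20). Differences of complex I genes included Ndufa9 at -2.22 ± 1.47 (SE, 5 and 2 samples; limma adjusted p = 0.999), Ndufa3 at 1.82 ± 1.15, Ndufb5 at -1.77 ± 1.41 and Ndufv2 at -1.55 ± 1.47. Ndufa9, an accessory subunit of the matrix arm, averaged 10.48, 7.64, 11.58, 12.10 and 10.94 in the 5 ganglion stages, all below the 12.75 and 12.80 of the 2 amacrine stages. Its cells overlapped widely, from 7.64 to 14.41 in ganglion and from 9.17 to 15.17 in amacrine cells. Stage means did not overlap for 1 gene that was higher in ganglion cells, Ndufa3 (1.39% of 72, against 3.3% of all tested genes), and for 3 that were lower, Ndufa9, Cox8c and Atp5pb (4.17%, against 5.22%), shares near or below the background. In complex I 25 of 32 tested genes had a negative difference (median -0.67), in complex IV 3 of 12 (median 0.36).

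Within P0, 2 of the 72 genes were higher in ganglion cells by 2 or more (2.78%, against 10.8% of all tested genes) and 1 was lower (1.39%, against 4.69%), and for none did the cells of the 2 types fail to overlap (against 1.66% higher and 0.334% lower). The median difference between the 4 ganglion and 5 amacrine cells was 0.13 over the subunit genes and 0.23 over all tested genes, with a sign that turned under a floor of 500 (-0.11), under quantile normalization (-0.24) and on leaving out any of 5 cells singly. Cox7a2l, which joins complexes III and IV in supercomplexes, measured 12.66, 13.58, 13.95 and 14.54 in the ganglion cells and 7.64, 7.64, 10.18, 12.28 and 12.95 in the amacrine cells (difference 3.54). The ranges overlapped only between 12.66 and 12.95. Ndufv1, the NADH-binding subunit of complex I, measured 12.03 to 14.33 in the ganglion cells and 8.26 or less in 3 of the 5 amacrine cells, but 14.87 in the amacrine cell D1 (difference 2.76). Ndufb5 was farthest in the other direction (-2.07), with 7.64 to 12.79 in ganglion and 11.29 to 14.30 in amacrine cells.

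Photoreceptors were then set against the mean of ganglion and amacrine cells, with the P0 pair and the adult rod as their 2 samples. No subunit gene passed the adjusted threshold, against 153 of the 7183 tested genes (2.13%). At an unadjusted p under 0.05 there were 11 higher genes (15.3% of 72, against 5.94% of all tested genes) and 4 lower ones (5.56%, against 6.24%). The median difference was 0.20 over the subunit genes and -0.57 over all tested genes. Under quantile normalization the first was -0.0002 and the second -0.61. Many of the largest differences shrank without the adult rod. Atp5pb, the b subunit of the stator stalk, had the lowest p: it measured 12.62 or more in all 19 ganglion and amacrine cells and 13.41 and 14.19 in the P0 photoreceptors, but 7.64 in the rod. Its difference was -3.78 ± 1.23 (SE, 2 samples against 5 and 2; limma adjusted p = 0.0776) and -0.71 without the rod. It passed limma's threshold with a floor of 100 (adjusted p = 0.0406) and with quantile normalization (adjusted p = 0.00956). These values come from 1 probe set, and another one of Atp5pb was detected in all 22 cells, the rod included.

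Among the higher genes, Ndufs4, an accessory subunit that stabilises the matrix arm of complex I, differed by 3.78 ± 1.43 (SE; limma adjusted p = 0.169) and by 1.10 without the rod. Ndufb9, of the membrane arm, differed by 3.70 ± 1.36 (limma adjusted p = 0.151) and by 0.54 without the rod. For Sdha (3.12 ± 1.43) and Atp5g1 (2.88 ± 1.44) the sign turned without the rod, to -0.39 and -0.07. Ndufb11, also of the membrane arm, kept more of its difference: it measured 13.36 and 15.48 in the P0 photoreceptors and 16.34 in the rod, with a difference of 3.17 ± 1.32 (limma adjusted p = 0.248) and 2.20 without the rod. Its 2 photoreceptor samples were above all 7 others (13.94 at most), as were those of Atp5c1 (2.78% of 72 for both genes, against 3.05% of all tested genes). Those of Ndufa1 alone were below all others (1.39%, against 7.04%). Of the lower genes, Ndufa10 was below the detection level in all 3 photoreceptors, at 7.64, 7.64 and 7.82, and detected in 12 of the 19 other cells (-2.93 ± 1.38, limma adjusted p = 0.349). Sdhb was detected in 1 of 3 photoreceptors, at 10.72, and in 15 of the 19 other cells (-2.96 ± 1.45, limma adjusted p = 0.381).

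The adult rod differed from the P0 photoreceptors in both directions and by large steps. The brightest signals of the subunit genes lay in the rod: 25 of its 72 tested genes (34.7%) were at log2 15 or more, against 6.18% of all tested genes in that cell, and next came E15.5 ganglion cell C7 with 11 (15.3%, against 5.51%). At the same time 15 of the 72 (20.8%) were at the floor in the rod, against 44.7% of all tested genes. The level of 15 was chosen after the values were seen. Rod minus P0 photoreceptors, 29 of 72 genes (40.3%) were higher by 2 or more, against 14.5% of all tested genes. Lower by as much were 20 (27.8%), against 26.1%. A gene at the floor in the rod cannot be higher there, so the shares of higher genes are not like for like. Genes at the floor in both groups have a difference of 0. The median difference was 1.23 over the subunit genes and 0 over all tested genes, and 0.58 and -0.16 under quantile normalization. This is 1 cell against 2, without a test. The summed signal of the 8 glial markers was log2 17.92 in the rod (1 detected), 15.32 in P0 photoreceptor H1 (4 detected) and 10.64, the floor of all 8, in E1. Of the 8 amacrine markers, 3 were detected in the rod and 1 in each P0 photoreceptor (summed signal log2 14.12, 11.73 in H1 and 14.05 in E1). The part of these markers in the difference was not tested. The 2 P0 photoreceptors differed from each other as well: 50 subunit genes were detected in E1 and 39 in H1, Cox8a measured 14.47 and 7.64, and Cox6a1 14.64 and 8.01.

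By complex, the rod was higher by a median of 2.13 in complex IV and 1.66 in complex V, with 0.33 in complex I, -0.58 in complex II and -1.11 in complex III. In complex V, Atp5a1 measured 18.38 in the rod and 13.15 and 14.47 at P0 (difference 4.57), Atp5b measured 16.40 against 11.45 and 13.96 (3.70), and the small subunit gene Atp5k 15.09 against 7.64 and 7.95 (7.29). Atp5k was below 11.1 in all other cells of the series. In the same complex Atp5pb (-6.16) and Atp5g3 (-4.37) were far lower in the rod on the probe sets used. Another probe set of Atp5pb was detected in all 22 cells, the rod included. In complex IV, Cox4i1 measured 17.76 in the rod and 12.54 and 15.16 at P0 (3.90), and Cox7a2 18.16 against 11.15 and 13.30 (5.94), whereas Cox5a, another nuclear subunit of the enzyme, was at the floor in the rod and at 9.97 and 14.12 at P0 (-4.40).

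Complexes I to III divided in the same manner. In complex I, Ndufa13 measured 17.14 in the rod and 7.69 and 9.75 at P0, a difference of 8.42, and Ndufs3, a core subunit of the matrix arm, was at the floor in the rod and at 13.10 and 14.25 at P0 (-6.03). Ndufb9 (6.31) and Ndufv2 (6.21), the latter an iron-sulphur subunit, were high with Ndufa13. In complex II, Sdha measured 17.80 in the rod and 8.90 and 12.63 at P0 (7.03), above every other cell of the series (14.33 at most), while Sdhc measured 9.53 against 13.21 and 13.88 (-4.02). In complex III the hinge protein gene Uqcrh (6.99) and Uqcrb (5.87) were higher in the rod, and the core protein gene Uqcrc1, at 8.24 against 12.59 and 13.28, was lower (-4.70). Each of the 5 complexes thus had at least 1 gene that was higher and 1 that was lower by 2 or more in the rod.

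**Figure D5:**
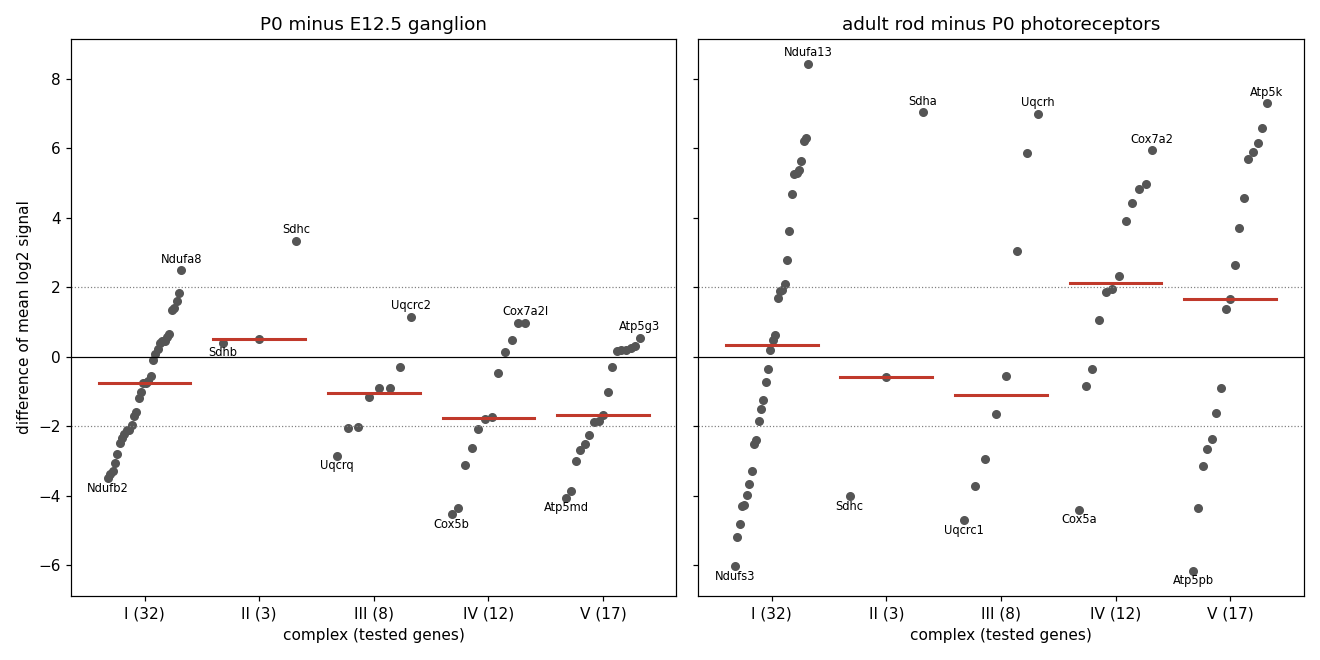
Difference of mean log2 signal of the tested subunit genes by complex, for P0 minus E12.5 ganglion cells (left) and the adult rod minus P0 photoreceptors (right); each point is a gene, the red line the median of the complex, and the dotted lines mark differences of 2. On the left, the complex II median of 0.52 is the only positive one; on the right, points of every complex reach from below -4 to above 5.

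The other genes of the pathway were taken as lists. Of the genes of mitochondrial DNA, the annotation named ND5, a core subunit of complex I, which was detected in all 22 cells. Its log2 signal averaged 14.66 in E12.5 and 15.36 in P0 ganglion cells, 14.98 in P0 photoreceptors and 19.27 in the adult rod (rod minus P0 photoreceptors 4.29). In the photoreceptor fit it differed by 2.48 (limma adjusted p = 0.191), by 0.34 without the adult rod and by 0.77 under quantile normalization. None of the 26 tested assembly factors of 42, the 14 tested genes of 15 of pyruvate dehydrogenase and the citrate cycle, or the 8 tested regulators of mitochondrial biogenesis of 12 passed the threshold in any of the 3 fits. Ppargc1a, the coactivator known as a driver of mitochondrial biogenesis, was detected in 2 cells and measured 15.09 in the adult rod.

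Of the 11 tested genes for cytochrome c, carriers and pores, 2 were lower in photoreceptors (18.2%, against 0.626% of all tested genes) and none was higher (against 1.5%). Slc25a4, the ADP/ATP carrier of heart and muscle, averaged 11.08 in the P0 photoreceptors and was at 7.64 in the adult rod. The 7 ganglion and amacrine samples averaged 12.98 to 15.39 (difference -5.18, limma adjusted p = 0.00462). The 2 P0 photoreceptors were far apart: E1 was at the floor, and H1 lay within the range of those 7 samples. Without H1 the difference was -6.90. The call was lost without P0 photoreceptor E1 (-3.46, limma adjusted p = 0.143) and without the E16.5 amacrine cell (-5.05, limma adjusted p = 0.105). Vdac3, a pore of the outer membrane, was at the floor in all 3 photoreceptors, and in the E13.5 ganglion cell, and averaged 12.15 to 14.26 in the other samples (difference -5.36, limma adjusted p = 0.0156). That call was lost without the E16.5 amacrine cell (limma adjusted p = 0.158). The median of the 11 genes in this fit was -2.18, against -0.57 over all tested genes.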

How the data were processed

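Each cell had 1 Affymetrix array, deposited as intensity values that the authors computed with MAS5, per the submitters' processing notes; its settings and later steps are not stated there. On 21 of 22 arrays the 2% trimmed mean was 500, and the E15.5 cell B1 (18.1) was multiplied by 27.6 to reach it. Of 45101 probe sets, 64 controls were left out, and only probe sets with 1 gene symbol (34945) were named; 932 had several and 9211 none. Signals were floored at 200 and taken to log2. Genes detected (1000 or more) in at least 3 cells, 7183 of 18193, were tested.

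Cells of a type and stage were averaged into 9 samples and fitted with limma 3.58.1 (R 4.3.3; lmFit, eBayes with a trend), with Benjamini-Hochberg adjustment over all tested genes at 0.05; the prior degrees of freedom were infinite, so standard errors follow the trend of variance with signal. P-values measure only the spread between these samples as pooled over all tested genes, and not a gene's own spread. Comparisons of 1 sample with 1 have no test, and a log2 difference of 2 is counted there. The number of arrays limits the precision. The highest correlation between the arrays was 0.615, so none was a duplicate. The code was tested on simulated data.

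The genes, lists, markers and thresholds were chosen with earlier results of these data known. Named genes were, per complex, the 3 with the highest mean signal and those with the largest positive and negative difference in each comparison, besides complex II, the isoforms known from other tissues with their common forms, the c ring, and genes detected in all cells or none; Atp5j, Cox6c, Ndufa1, Ndufs5 and Ndufab1 were chosen after their values were seen. Signals from probe sets ending in _s_at or _x_at (16 of the 82 genes) can come from several transcripts. Alternatives covered the floor, filter, normalization, probe set rule, averaging, variance model and cells left out.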

Additional observations from a re-analysis of the deposited data

Results flagged for a closer look

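P0 amacrine cell F6 lay apart from the other cells of its type and stage in 3 of the 14 checks made on groups of 4 or 5 cells. The rule marks about 1 in 20 groups by chance, but these 3 checks share 1 cell and overlapping genes and are not independent, so their number is not set against that rate. The median log2 signal of its 82 subunit genes was 12.57, against 8.19 to 9.45 in the other 4 P0 amacrine cells. Its median was 12.50 in complex I, against 7.98 to 9.05, and 11.64 in complex IV, against 7.64 to 8.53. Cox8a measured 12.88 and Cox5b 13.26 in F6, against at most 8.57 and 9.99 in the others. F6 was also the P0 amacrine cell with the most genes detected, 4131 against 1927 to 2971. The part of this difference in the subunit signal was not tested.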

How the results depend on the processing

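No paired analysis was possible because the labels give no replicate numbers shared between groups. The median difference of the subunit genes kept its sign in every alternative for P0 minus E12.5 ganglion cells, where 16 to 30 genes were lower by 2 or more. Genes higher by 2 or more there numbered 4 with a floor of 100, 1 with a floor of 500, 5 with medians over cells, 1 without P0 cells F6 and F1, and 1 to 7 with single cells left out. In photoreceptors 1 subunit gene, Atp5pb, passed the threshold with a floor of 100 and 1, again Atp5pb, with quantile normalization. Sdha there was -0.43 without the adult rod and J6 (E16.5 amacrine) and -0.39 to 4.05 with single cells left out, Atp5g1 was -0.067 to 3.58, and ND5 was -0.26 without the rod and J6. The mean number of subunit genes detected in photoreceptors was 36.7 with the mean over probe sets, 53.7 and 36.7 with detection at 500 and 2000, and 35 without probe sets that can bind several transcripts. The photoreceptor median of the subunit genes ran from -0.02 to 0.77 with single cells left out. All genes called in the photoreceptor fit, 153, were 56 without a filter, 101 with detection in 6 cells, 44 with the mean over probe sets, 47 with medians over cells, 51 with ordinary variances, 67 without the rod, 44 without J6 and 27 without both. It was 101 without the E14.5 sample. The call of Slc25a4 was also lost without a filter (limma adjusted p = 0.142), with the mean over probe sets (0.151) and with ordinary variances (0.151), and that of Vdac3 under the same 3 settings (0.333, 0.122 and 0.388), with medians over cells (0.127), without a variance trend (0.0618) and without the E14.5 sample (0.053). The median for ganglion minus amacrine turned positive with medians over cells (0.03), each cell as a sample (0.51), without F6 and F1 (0.12), without the rod and J6 (0.79), without J6 (0.78) and without F6 (0.20). The medians of the stage trend and of the adult rod minus P0 photoreceptors kept their sign in every alternative, the latter at 0.36 to 1.55.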
